A study of Mus musculus with 4 samples.

Results

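Myeloid and macrophage genes were followed in 2 tissues of E14.5 mouse embryos, liver and yolk sac. The set comprised 10 genes given by name, Spi1, Csf1r, Ptprc, Rac2, Cebpe, Mpo, Elane, Cx3cr1, Adgre1 and Laptm5, among 21951 protein-coding genes of the GENCODE M21 annotation (GRCm38), and all 10 were found there under 1 gene entry each. Each tissue was represented by 2 PRO-seq libraries, and every library was prepared from chromatin of the tissue of 6 pooled embryos. Liver and yolk sac embryos alike came from C57BL/6J mothers and fathers of a mixed C57BL/6J and CAST/EiJ background, chosen for CAST/EiJ alleles at the imprinted Dlk1/Gtl2 locus, and the sample records spell the first strain C57BL/6h. No genotype or treatment differed between the groups, so tissue is the only labelled difference. Any difference in library preparation or depth between the groups cannot be told apart from it. PRO-seq sequences nascent RNA from engaged polymerases, and the values available are lists of dREG peaks, intervals classed as transcription initiation regions, each with a score.

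Myeloid cells are the granulocytes, monocytes and macrophages of the blood and tissues. The yolk sac is the source of the earliest macrophages of the embryo, and the fetal liver is the main blood-forming organ at midgestation, where granulocyte precursors also arise. The transcription factor PU.1, encoded by Spi1, is needed for both branches; C/EBP family members then drive granulocyte maturation, while signalling through the colony-stimulating factor receptor Csf1r maintains macrophages.

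A gene was counted as called in a library when a peak came within 500 bp of any of its annotated starts. A distal peak was one in a gene body or within 20 kb of it that lay outside such a window of every annotated gene. The liver lists held 24863 and 24333 peaks and the yolk sac lists 50525 and 43055, and read depth is not known. The longer lists alone can therefore give more calls in yolk sac, and calls were repeated after keeping the top 24333 peaks by score in every library (equal-length lists). This step removed few or no liver peaks and the lower-scoring part of each yolk sac list. With 2 libraries against 2, the smallest p-value of an exact two-sided permutation test is 0.333, so no difference between tissues could pass a threshold, and values are set against the spread between replicates. Nothing in the labels ties a replicate to a separate collection, and the spread may be technical. In whole tissue, fewer cells of a type and less transcription per cell cannot be told apart. The tissue labels were checked with marker lists: of 10 yolk sac endoderm genes, 8 and 7 were called in liver against 10 and 10 in yolk sac, with 7 in all 4 libraries and Amn and Cubn in yolk sac only. Of 10 erythroid genes, each liver list had calls at 10 and each yolk sac list at 4. Of 10 mesenchyme genes, 6 and 9 were called in liver against 10 and 10 in yolk sac, with Hand1 in yolk sac only. Calls at 10 hepatocyte genes numbered 7 and 6 in liver against 6 and 6 in yolk sac, so their number did not separate the tissues. In that list Cps1 and C3 were called in liver only, Fgb in yolk sac only, and 4 genes, Alb among them, in all 4 libraries. Of all protein-coding genes, 1.01% were called in liver only and 5.25% in yolk sac only.

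Promoter peaks were present at 6 and 6 of the 10 genes in liver, and yolk sac had 7 and 6. Of all 21951 protein-coding genes, 12306 and 12706 were called in liver and 13999 and 13702 in yolk sac. Spi1, Ptprc, Cx3cr1 and Laptm5 were called in all 4 libraries, a pattern shown by 53.8% of protein-coding genes. Rac2 was called in liver only, against 1.01% of protein-coding genes, and Adgre1 in yolk sac only, against 5.25%. Elane was called in no library, as were 34.2% of protein-coding genes. Csf1r, Cebpe and Mpo had other combinations, which 5.73% of protein-coding genes showed. The numbers called per library differed between tissues by 0.5 genes on average (yolk sac minus liver), less than the difference between the yolk sac replicates. With equal-length lists the numbers were 6 and 6 in liver against 4 and 4 in yolk sac, so that the direction turned. Rac2 and Ptprc were then liver-only, against 3.01% of protein-coding genes, and no gene of the set was yolk-sac-only, against 2.61%. Leaving out liver replicate 2 added Mpo to the liver-only genes and Cebpe to the yolk-sac-only genes, making 2 of each. Leaving out yolk sac replicate 2 added Csf1r to the yolk-sac-only genes, again making 2. Such calls are easier to reach with a library left out. Their shares of all protein-coding genes are not given, so these counts cannot be read against the shares above.

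**Figure D1:**
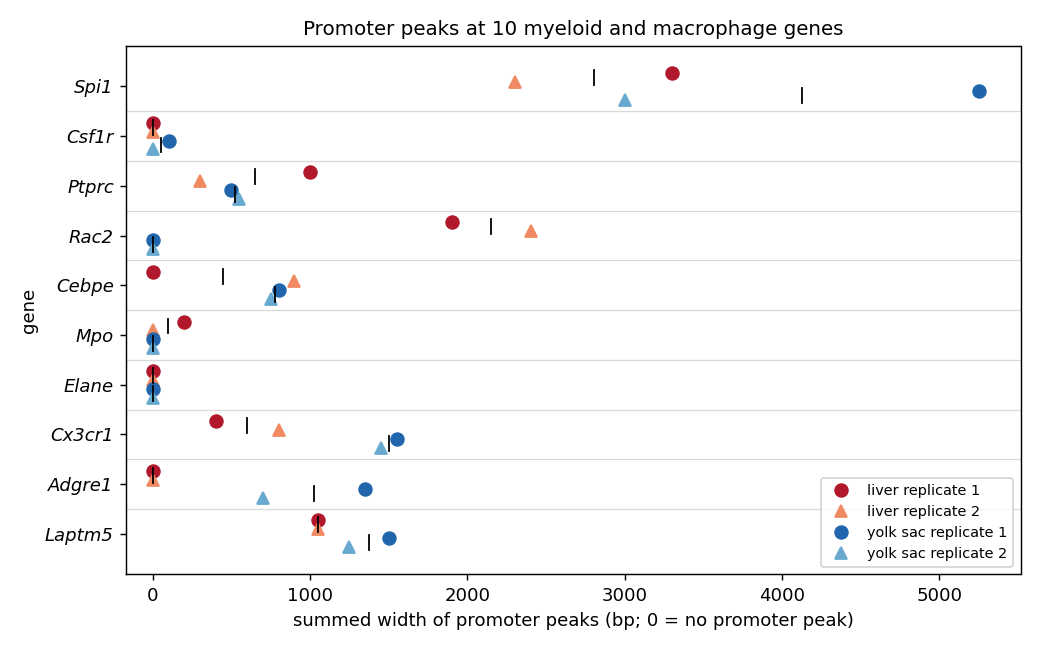
Summed width of promoter peaks (bp, x axis) at each of the 10 genes (y axis) in the 4 libraries; points are libraries, short black lines the means of the 2 libraries of a tissue, and 0 means no promoter peak. Rac2 has values of 1902 and 2404 bp in liver and 0 in both yolk sac libraries, Adgre1 has the reverse, and Elane is at 0 throughout.

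The transcription factor genes come first. Spi1 (ENSMUSG00000002111.8, chromosome 2, 91082390 to 91115756, plus strand) had peaks at both of its groups of annotated starts in all 4 libraries. The upstream group lies at the 5′ end of the gene. The downstream group, at 91096096 and 91096780, belongs to 2 shorter protein-coding transcripts. Summed promoter peak width was 3304 and 2304 bp in liver and 5254 and 3004 bp in yolk sac, or 2804 ± 707 against 4129 ± 1591 bp (SD, n = 2), and the tissues overlapped. Within their lists, the peaks at the upstream start stood at percentiles 77.7 and 41.3 of the score in liver and at 59.3 and 64.6 in yolk sac. The peaks at the downstream starts stood at 61.9 and 35.9 in liver and at 86.6 and 94.1 in yolk sac. Thus the higher-ranked of the 2 Spi1 peaks was the upstream one in both liver lists and the downstream one in both yolk sac lists.

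Spi1 also had initiation regions away from its starts. A region centred 3.6 kb upstream of the most upstream start was called in all 4 libraries and overlapped no other gene. Regions at 4.1 kb, in an intron, and at 30.5 kb, overlapping an exon, were yolk-sac-only. Their percentiles in the yolk sac lists were 43.1 and 37.1 for the first and 67.7 and 79.1 for the second. A further region 12.3 kb upstream was called in all 4 libraries, but it lay within 500 bp of an annotated start of the neighbouring gene Slc39a13 and inside that gene, so it could not be assigned to Spi1. An upstream enhancer of Spi1 is known. Whether any of the regions described here coincides with it was not tested, and this includes the peak at the upstream starts, which lies upstream of the downstream starts.

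Cebpe (ENSMUSG00000052435.7, chromosome 14, 54710360 to 54712174, minus strand) encodes C/EBP epsilon, a regulator of late granulocyte maturation. No peak of any library covered its single annotated start. The nearest peak lay upstream in each library, with its near edge 527 and 227 bp from the start in liver and 427 and 477 bp in yolk sac. All 4 libraries thus had the region (54712401 to 54713402), and the gene missed a call in liver replicate 1 by its distance alone. The peaks were 602 and 902 bp wide in liver and 802 and 752 bp in yolk sac, and these widths overlapped. Within their lists they ranked at percentiles 31.1 and 41.5 in liver and at 92.3 and 95.2 in yolk sac. A second region, centred 2.7 kb upstream of the start (54714351 to 54715402), was yolk-sac-only, at percentiles 93.2 and 83.9. With a window of 250 bp, only liver replicate 2 called Cebpe, and the direction of the call turned.

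Among the receptors, Csf1r and Adgre1 had no promoter peak in either liver library. Csf1r (ENSMUSG00000024621.16, chromosome 18, 61100598 to 61132149, plus strand) encodes the receptor for the macrophage growth factors Csf1 and Il34. Its only promoter peak, in yolk sac replicate 1, was 102 bp wide and stood at percentile 2.2 of that list. It lay 120 bp upstream of the start of a protein-coding transcript. The most upstream start of the gene belongs to a processed transcript, and no library had a peak within 500 bp of it. Around the gene, however, liver had 1 and 1 distal peaks where yolk sac had 6 and 7. These peaks covered 252 and 1152 bp in liver and 9212 and 7264 bp in yolk sac, with no overlap between tissues (exact permutation p = 0.333, the smallest possible).

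The liver peaks of Csf1r belonged to 1 intronic region called in all 4 libraries, centred 7.9 kb from the most upstream start. Its peaks were 252 and 1152 bp wide in liver, at percentiles 8.9 and 34.1, and 2152 and 1652 bp wide in yolk sac, at percentiles 83.8 and 71.5. An intronic enhancer named FIRE is known in this gene, and whether the region coincides with it was not tested. Yolk-sac-only regions lay 10.9 and 3.0 kb upstream of the most upstream start, 9.8 kb into the gene, and downstream of it at 44.6 kb, the last inside the neighbouring gene Hmgxb3. At the widest, 3.0 kb upstream, peaks covered 3802 and 3154 bp. With equal-length lists, Csf1r still had 1 and 1 distal peaks in liver against 3 and 3 in yolk sac.

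Adgre1 (ENSMUSG00000004730.15, chromosome 17, 57358691 to 57483527, plus strand) encodes F4/80, a surface protein widely used to mark mouse macrophages. Its promoter peak was 1352 bp wide in yolk sac replicate 1 and 702 bp in replicate 2, and neither liver library had a peak there. It stood at percentiles 48.1 and 33.1. The liver lists had no peak anywhere in the gene or within 20 kb, and the nearest liver peaks were 79089 and 68089 bp from a start. Both yolk sac lists had 3 regions upstream, centred 16.8, 14.2 and 11.5 kb from the start. The promoter call did not hold in equal-length lists, where neither yolk sac library kept the peak, and a single distal peak remained, in yolk sac replicate 1.

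Cx3cr1 (ENSMUSG00000052336.7, chromosome 9, 119901616 to 120069879, minus strand) encodes the receptor for the chemokine Cx3cl1, found on monocytes and tissue macrophages. Its promoter peak was 402 and 802 bp wide in liver and 1552 and 1452 bp in yolk sac. The mean was 602 ± 283 bp in liver and 1502 ± 70.7 bp in yolk sac (SD, n = 2), 2.50-fold wider, and the tissues did not overlap. The peak also lay within 500 bp of a start of the noncoding gene Gm33858 on the opposite strand, and the lists carry no strand, so both genes can contribute to it. Liver had 4 and 3 distal peaks at Cx3cr1, and yolk sac had 15 and 14. The annotated body is long because of 1 transcript of 166.7 kb that runs past Csrnp1, Ttc21a and Gorasp1. With the body as in RefSeq, 19.6 kb long, the distal peaks numbered 1 and 0 in liver and 9 and 6 in yolk sac. In equal-length lists and the longer body they were 4 and 3 against 5 and 4, and the tissues overlapped.

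Ptprc (ENSMUSG00000026395.16, chromosome 1, 138062861 to 138175708, minus strand) encodes CD45, a phosphatase on the surface of nearly all nucleated blood cells. Its promoter peak covered starts of the gene in all 4 libraries, with widths of 1002 and 302 bp in liver and 502 and 552 bp in yolk sac, and the liver replicates spanned the yolk sac values. It stood low in every list, at percentiles 21.6 and 14.4 in liver and 17.3 and 13.7 in yolk sac. It therefore remained only in the liver lists when lists of equal length were used. A peak 16.2 kb upstream, at the start of the noncoding gene Gm28556, was also called in all 4 libraries.

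Rac2 and Laptm5 encode intracellular proteins of blood cells. Rac2 (ENSMUSG00000033220.7, chromosome 15, 78559167 to 78572783, minus strand) encodes a small GTPase of blood cells that takes part in cell movement and in assembly of the neutrophil oxidase. Its main promoter peak was 1902 and 1702 bp wide in the liver lists, at percentiles 95.3 and 93.2, and covered the start. In yolk sac the nearest peaks began 629 and 779 bp downstream of the start, were 702 and 252 bp wide and stood at percentiles 41.5 and 8.7. They lay inside the span of the liver peaks, so the tissues differed in the extent of the peak over the start. With a window of 1000 bp, Rac2 was called in all 4 libraries and no gene of the set was liver-only, against 1.0% of protein-coding genes. The calls of Cebpe and Mpo also changed with the window, Mpo losing its only call at 250 bp.

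A further Rac2 region, at the internal start of a short protein-coding transcript (78563851 to 78564552), was called in both liver libraries at percentiles 27.6 and 62.4 and in no yolk sac library. Upstream, a region centred 8.2 kb from the start was called in all 4 libraries and lay at the noncoding gene Gm36738. Equal-length lists and the higher-scoring 50% of each list only remove peaks, so neither could add a yolk sac call. The main liver peaks of Rac2 ranked above both cuts, so Rac2 stayed liver-only there by construction. In the higher-scoring 50%, 1.32% of protein-coding genes were liver-only. In that 50%, 3 genes of the set were yolk-sac-only (Cebpe, Cx3cr1 and Laptm5), against 8.84%.

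Laptm5 (ENSMUSG00000028581.17, chromosome 4, 130913125 to 130936141, plus strand) encodes a lysosomal membrane protein of blood cells. Its promoter peak was 1052 and 1052 bp wide in liver and 1502 and 1252 bp in yolk sac. The means were 1052 and 1377 ± 177 bp (SD, n = 2; no difference between the liver replicates), and the tissues did not overlap. It stood at percentiles 30.9 and 45.0 in liver and 93.5 and 60.3 in yolk sac. Laptm5 had no distal peak in liver and 2 and 1 in yolk sac, upstream of the gene, the region shared by the yolk sac replicates being centred 13.0 kb from the start.

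Of the 4 genes called in all libraries, Cx3cr1 and Laptm5 had wider promoter peaks in yolk sac with no overlap between tissues, a pattern shown by 38.1% of the 11805 protein-coding genes called in all 4. None was wider in liver, a pattern shown by 20.1%. Without liver replicate 1, all 4 genes were wider in yolk sac, and the count thus depends on that library. Non-overlap is easier to reach with a library left out. The share of all protein-coding genes under that rule is not given, so this count cannot be read against the 38.1%.

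Mpo and Elane, which encode the neutrophil granule proteins myeloperoxidase and neutrophil elastase, had no call at their 5′ ends in any library, which does not show that initiation was absent, since the lists hold only peaks with a score of 0.80 or more. Mpo (ENSMUSG00000009350.13, chromosome 11, 87793581 to 87804413, plus strand) had a peak of 202 bp in liver replicate 1 alone, at percentile 8.2. It lay 351 bp upstream of an internal annotated start and did not cover the 5′ end. The peak was also within 500 bp of the start at 87794209, that of a protein-coding transcript of 10.2 kb. In the other 3 libraries the nearest peak was at least 14579 bp from a start. Elane (ENSMUSG00000020125.7, chromosome 10, 79886247 to 79888215, plus strand) had no promoter peak in any library, and widening the window to 1000 bp gave none. The nearest liver peaks were 8195 and 4095 bp upstream, inside the neighbouring granule protease gene Prtn3, and the nearest yolk sac peaks 10954 and 11104 bp downstream.

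At the Elane locus, a region within Prtn3, centred 8.4 kb upstream of Elane, was liver-only. Its liver peaks were 402 and 102 bp wide. A region at the shared 5′ ends of Prtn3 and Plppr3 was called in all 4 libraries, and so was a region 11.3 kb downstream inside Med16. The latter stood at percentiles 61.7 and 95.8 in liver and 45.8 and 37.9 in yolk sac. Distal peaks numbered 2 and 2 in liver and 1 and 1 in yolk sac, and Elane was the 1 gene of the set with more in both liver libraries.

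**Figure D2:**
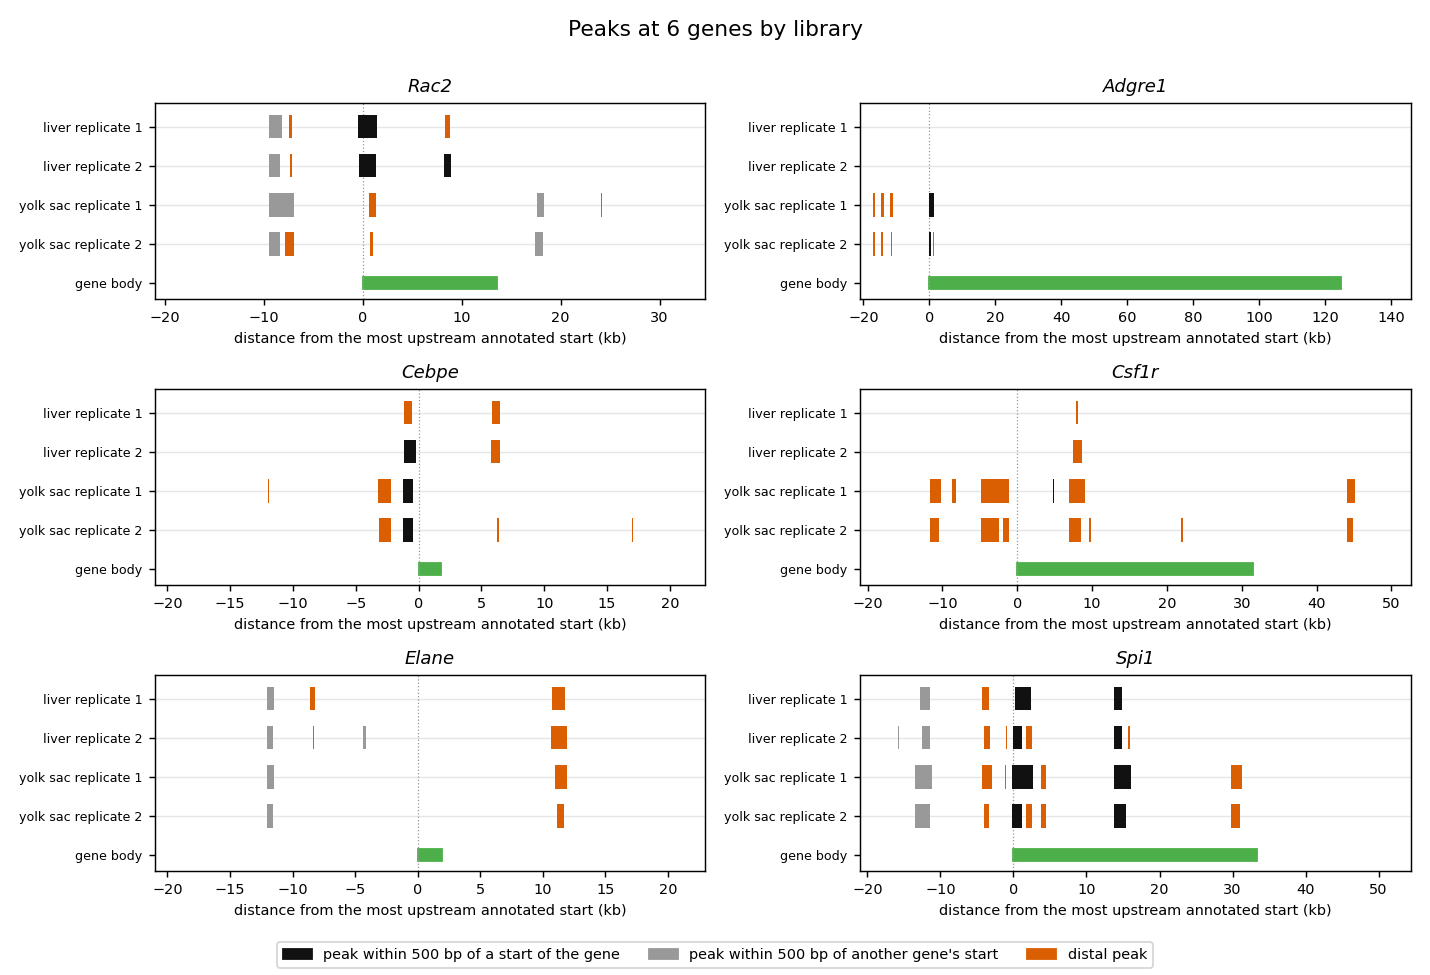
Positions of all peaks in the 4 libraries (rows) at 6 of the genes, as distance in kb from the most upstream annotated start (x axis, positive into the gene), with the gene body in green; black peaks lie within 500 bp of a start of the gene, grey ones within 500 bp of another gene's start, and orange ones are distal. Adgre1 has peaks in the yolk sac rows only, Csf1r has 1 distal peak in each liver row and 6 and 7 in the yolk sac rows, and no row of Elane has a peak at its start.

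Promoter sequences were available for 5 of the genes, Ptprc, Mpo, Elane, Cx3cr1 and Laptm5. They are RefSeq windows on GRCm38.p6 of 250 bases before to 50 after a start. Those of Mpo and Elane, which no peak touched, are shown with those of Laptm5 and Cx3cr1, which peaks covered in part or in whole in each library. Capitals mark matches on either strand to the letters searched. These were GAGGAAG for PU.1, which binds ETS-type motifs, and TTGCNNAA for C/EBP factors. For RUNX factors they were TGTGGT, for the GATA family AGATAA, and for a promoter box TATAAA. No letters were shared between matches in these windows. The windows are Elane, chr10:79886062-79886361, plus strand; Mpo, chr11:87793534-87793833, plus strand; Laptm5, chr4:130913066-130913365, plus strand; and Cx3cr1, chr9:120068247-120068546, minus strand.
Elane: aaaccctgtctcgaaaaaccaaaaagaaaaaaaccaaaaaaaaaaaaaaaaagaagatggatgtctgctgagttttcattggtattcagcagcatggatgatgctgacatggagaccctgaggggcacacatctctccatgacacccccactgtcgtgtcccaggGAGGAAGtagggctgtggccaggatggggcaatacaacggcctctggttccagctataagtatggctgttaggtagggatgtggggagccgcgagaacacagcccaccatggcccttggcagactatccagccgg
Mpo: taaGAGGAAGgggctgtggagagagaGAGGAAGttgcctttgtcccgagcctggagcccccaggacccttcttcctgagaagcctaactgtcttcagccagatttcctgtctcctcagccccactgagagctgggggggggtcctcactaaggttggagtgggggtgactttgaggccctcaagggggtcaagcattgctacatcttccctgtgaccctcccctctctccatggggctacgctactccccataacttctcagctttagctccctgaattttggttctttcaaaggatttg
Laptm5: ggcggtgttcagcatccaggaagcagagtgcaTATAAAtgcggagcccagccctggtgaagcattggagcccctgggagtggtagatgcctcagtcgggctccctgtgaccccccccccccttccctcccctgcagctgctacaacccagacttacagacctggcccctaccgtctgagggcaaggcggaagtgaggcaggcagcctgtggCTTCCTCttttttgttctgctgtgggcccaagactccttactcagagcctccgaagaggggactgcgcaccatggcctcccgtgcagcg
Cx3cr1: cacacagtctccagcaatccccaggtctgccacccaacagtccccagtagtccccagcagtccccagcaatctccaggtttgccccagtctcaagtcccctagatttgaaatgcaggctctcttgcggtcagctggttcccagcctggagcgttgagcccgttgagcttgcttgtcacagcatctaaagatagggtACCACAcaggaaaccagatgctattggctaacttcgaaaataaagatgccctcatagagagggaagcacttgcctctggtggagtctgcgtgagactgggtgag

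The PU.1 letters occurred at 2 places in the Mpo window, at 247 and 224 bases before the start, and at 1 place each in the windows of Elane, 85 bases before, and of Laptm5, 39 bases before on the reverse strand. They occurred in neither the Cx3cr1 window nor the 2 Ptprc windows, and 13.6% of all 32851 windows of this length held them. Thus the 2 windows without a peak and 1 of those with a peak carried these letters. The RUNX letters were found in the Cx3cr1 window, 54 bases before the start on the reverse strand, against 16.8% of all windows. The GATA letters were in 1 Ptprc window, 25 bases before the start, against 11.2%. The C/EBP letters were in none of the 6 windows, against 10.8%. TATAAA was in the Laptm5 window and 1 Ptprc window, against 13.6%, but at 218 and 187 bases from the start. Peaks covered 265, 115, 300 and 300 of the 300 bases of the Laptm5 window in liver replicates 1 and 2 and yolk sac replicates 1 and 2, and 196, 300, 300 and 300 of the Cx3cr1 window.

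Over the 10 genes together, liver had 13 and 14 distal peaks and yolk sac 36 and 37. The means were 13.5 ± 0.707 and 36.5 ± 0.707 (SD, n = 2; exact permutation p = 0.333). The ratio was 2.70, and it was also 2.70 for all distal peaks of the lists. Cx3cr1 held the most in yolk sac, and without it the numbers were 9 and 11 in liver and 21 and 23 in yolk sac. With equal-length lists, the set had 13 and 14 distal peaks in liver against 12 and 11 in yolk sac, and the direction turned. The yolk sac to liver ratio was then 0.85 for the set and 1.04 for every distal peak of those lists. The latter counts overlapped between tissues (liver: 11286, 10750; yolk sac: 11820, 11138), so no such turn was seen over the whole lists. Csf1r, Cx3cr1, Adgre1 and Laptm5 had more distal peaks in yolk sac with no overlap between tissues, 4 of 10 genes against 46.9% of protein-coding genes with a distal peak. Elane showed the reverse, against 8.25%. With equal-length lists, Csf1r alone kept the yolk sac excess, against 17.5% of protein-coding genes, and Rac2, Mpo and Elane had more in liver, against 30.4%. The Mpo peaks of the liver replicates were at different places, 3.8 kb into the gene and 18.4 kb upstream, at percentiles 5.8 and 5.4. Those of Rac2 belonged to the region at its internal start and to the region at Gm36738, which all 4 full lists had.

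**Figure D3:**
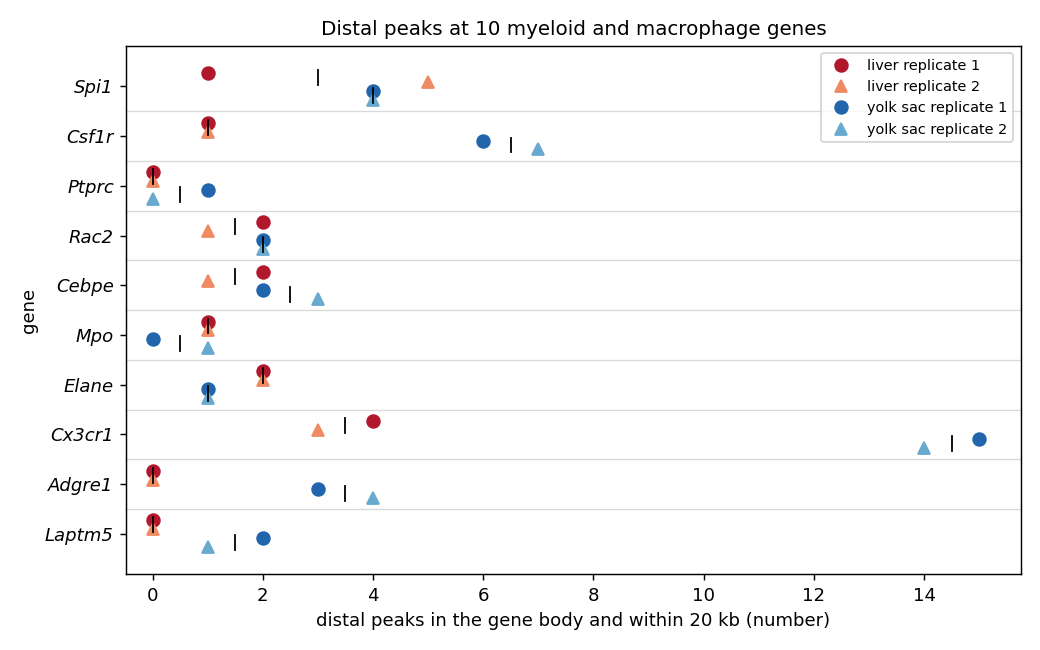
Number of distal peaks in the gene body and within 20 kb (x axis) at each of the 10 genes (y axis); points are libraries and short black lines the means of the 2 libraries of a tissue. The yolk sac points lie above both liver points at Csf1r (6 and 7 against 1 and 1), Cx3cr1, Adgre1 and Laptm5, and below them at Elane.

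Merging the peaks of the 4 libraries gave 44 distal regions around the set, of which 5 were called in all 4 libraries, 20 in yolk sac only, 1 in liver only and 18 in other combinations. The liver-only region was the one in Prtn3, upstream of Elane. Of the 23 regions at an annotated start, of these genes or of neighbours, 14 were called in all 4 libraries, 1 in liver only and 3 in yolk sac only. Over the whole lists, 8.92% of distal regions were called in all 4 libraries, 40.3% in yolk sac only and 8.01% in liver only. Of all regions at a start, these shares were 64.7%, 16.0% and 3.4%. With equal-length lists there were 19 distal regions around the set, 4 in all 4 libraries, 5 yolk-sac-only and 3 liver-only, against 9.93%, 23.3% and 20.7% of all distal regions. The 20 regions at a start then divided into 8 in all 4 libraries, 1 yolk-sac-only, 4 liver-only and 7 in other combinations, against 62.5%, 7.52% and 8.24% for the first 3 of these.

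Other genes of the myeloid lineages were grouped by role in 6 lists with 94 genes, of which 47 were called in all 4 libraries, 9 in liver only, 9 in yolk sac only and 14 in none. The shares over all protein-coding genes were 53.8%, 1.01%, 5.25% and 34.2% in that order. Genes of neutrophil and other granules had the larger counts in liver. Of all protein-coding genes, by contrast, more were called in yolk sac (counts above). Of the 16 granule genes, promoter peaks were present at 9 and 7 in liver, against 3 and 3 in yolk sac. The 6 liver-only genes were Ctsg, Camp, Ngp, S100a8, S100a9 and Fcnb, against 1.01% of protein-coding genes, and none was yolk-sac-only. Ctsg encodes cathepsin G, Camp and Ngp secondary granule proteins, S100a8 and S100a9 the subunits of calprotectin, and Fcnb a lectin of the complement system. Their promoter peaks were of modest rank: Camp stood at percentiles 54.8 and 63.9 and S100a8 at 7.8 and 40.3. With equal-length lists the liver-only genes were these 6 and Prtn3, against 3.01% of protein-coding genes. That step removed few or no liver peaks and could add none in yolk sac, so the count could hardly fall. Prtn3, called in all 4 full lists, entered because its yolk sac peaks were dropped. In the higher-scoring 50% of each list Camp alone of the 16 was liver-only, against 1.32% of protein-coding genes. Ltf and Lyz2, which encode lactoferrin and a lysozyme, were yolk-sac-only there, against 8.84%, so that these counts turned. Ltf and Lyz2 were chosen after their values were seen. S100a8 and S100a9 are near each other on chromosome 3.

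Macrophage genes had the larger counts in yolk sac. Of all protein-coding genes, more were also called in yolk sac (counts above). Of the 20 macrophage genes, promoter peaks were present at 7 and 9 in liver, against 17 and 15 in yolk sac. The 6 yolk-sac-only genes were C1qa, C1qb, C1qc, Cd163, Aif1 and Siglec1, against 5.25% of protein-coding genes, and none was liver-only. C1qa, C1qb and C1qc encode the chains of complement C1q and are neighbours on chromosome 4, so they are not independent loci. Cd163 encodes the haemoglobin scavenger receptor, Siglec1 the sialic acid receptor CD169, and Aif1 the marker Iba1. C1qa stood at percentiles 75.4 and 62.2 and Siglec1 at 79.7 and 43.8. C1qc stood at 20.4 and 12.5. Only C1qa and Siglec1 remained yolk-sac-only in equal-length lists, against 2.61% of protein-coding genes. Cd68 was then liver-only, against 3.01%, as it was called in all 4 libraries at percentiles between 31.3 and 40.3. In the higher-scoring 50% of each list, 6 macrophage genes were yolk-sac-only, against 8.84% of protein-coding genes. Of the genes named above only C1qa was among them, and the others were called in all 4 full lists.

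The remaining lists are read against 53.8% of protein-coding genes called in all 4 libraries, 1.01% in liver only and 5.25% in yolk sac only. Of 16 genes of leukocytes in general, 11 were called in all 4 libraries and Cd52 and Vav1 in liver only, the first encoding a surface glycoprotein and the second an exchange factor for Rac proteins. Of 16 myeloid regulators, 14 were called in all 4 libraries and none in 1 tissue only. Among 16 receptors and ligands, 7 were called in all 4 libraries. The progenitor receptor gene Flt3 was liver-only, and the ligand genes Il34, for Csf1r, and Ccl2, a monocyte chemokine, were yolk-sac-only, Il34 at percentiles 32.9 and 99.8. Of 10 genes of the phagocyte oxidase and Rac proteins, 7 were called in all 4 libraries, and Ncf1, an oxidase subunit, was yolk-sac-only at percentiles 48.3 and 18.9. The yolk-sac-only calls at Ccl2 and Ncf1 were absent from equal-length lists, and Il34 was not yolk-sac-only there.

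Marker genes of other cells were counted in the same way, and are read against the same shares of all protein-coding genes (1.01% liver-only and 5.25% yolk-sac-only). The erythroid genes Gata1, Klf1, Alas2, Slc4a1 and Hbb-bt were liver-only. Of 8 megakaryocyte genes, 4 and 3 were called in liver and 2 and 2 in yolk sac, with Vwf among the liver-only genes. Of 10 lymphoid genes, 3 and 3 were called in liver and 2 and 2 in yolk sac, Blnk being liver-only, while Cd3e, Rag1 and Pax5 were called in no library. Of 8 endothelial genes, 4 and 7 were called in liver and 8 and 8 in yolk sac, with Emcn yolk-sac-only. Of 8 mast cell genes, 1 and 2 were called in liver and 2 and 2 in yolk sac, and Cpa3, Mcpt4 and Tpsb2 in none. The part of the cell make-up of the tissues in the granule and macrophage results was not tested.

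**Figure D4:**
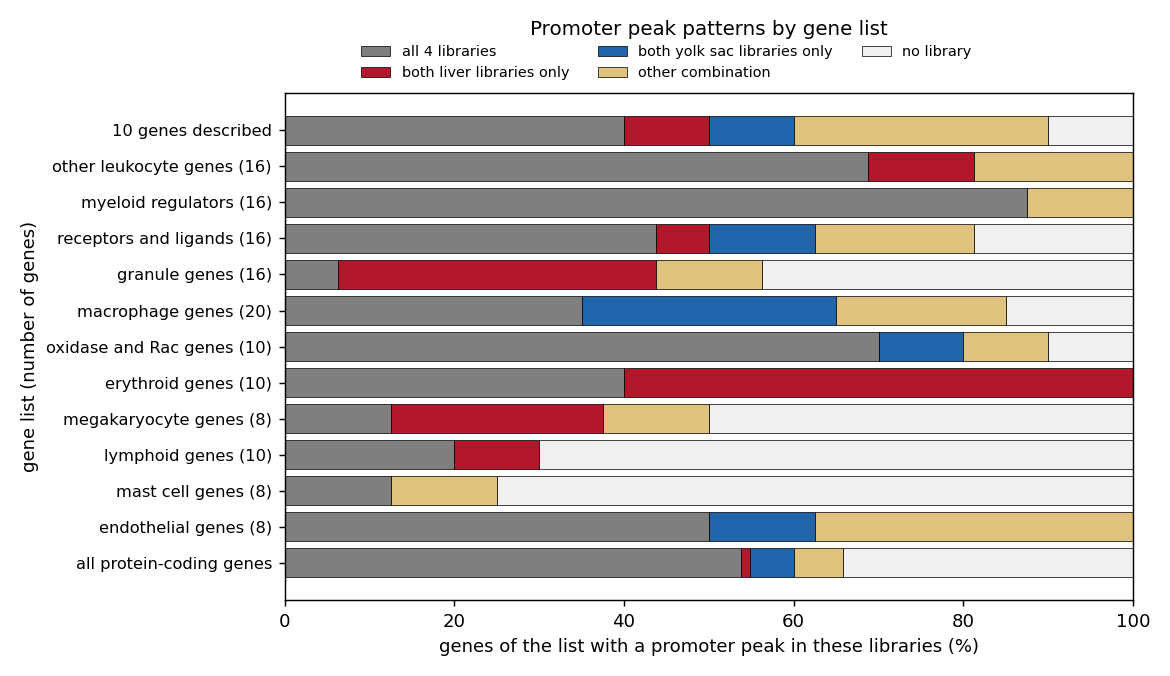
Share of the genes of each list (%, x axis) by the libraries with a promoter peak, for the 10 genes described, 6 lists of myeloid genes, 5 lists for other blood cells and vessels, and all protein-coding genes (y axis, number of genes in brackets). Granule genes have 6 of 16 in the liver-only part and macrophage genes 6 of 20 in the yolk-sac-only part, where all protein-coding genes have 1.01% and 5.25%.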

How the data were processed

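Each library has 1 deposited list of peaks with chromosome, start, end and the authors' score, which carries no unit; it allows no depth or counting interval. Bowtie2, bedtools and build mm10 are named per the submitters' processing notes, the file names carry the word dREG, and its version and filters are not given in the sources used here. The lowest score was 0.80 in each list. Scores only ranked peaks within a list: a percentile is the share of its peaks scoring at or below that peak.

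Positions are 1-based, on GENCODE M21. Calls needed an overlap of at least 1 bp with a start's window, and widths are summed over a gene's promoter peaks. Python 3.11.15 and numpy 2.4.6 were used, with functions tested on simulated lists. The naming rule was all 10 genes, plus listed genes found in both libraries of 1 tissue alone; Alb, Cd68, Prtn3, Ltf, Lyz2 and the listed genes in no library were named after their values were seen. Genes, lists and tests were chosen with earlier results of these data known. Alternatives were windows of 250 and 1000 bp, calls by midpoint, flanks of 10 and 50 kb, the higher-scoring 50%, equal-length lists, each library left out, and the replicate block. Overlapping genes cannot be told apart. Some listed genes are not reported here by name.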

Additional observations from a re-analysis of the deposited data

How the results depend on the processing

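Depth is unknown and the yolk sac lists are longer, so the 2 score filters decide most. With equal-length lists, the difference in genes called (yolk sac minus liver) was -2 instead of 0.5 and that in distal peaks -2 instead of 23, liver-only genes of the set numbered 2 instead of 1, yolk-sac-only genes 0 instead of 1, and yolk-sac-only macrophage genes 2 instead of 6. With the higher-scoring 50%, the values were 2.5 genes called, 8.5 distal peaks, 3 yolk-sac-only genes, 0 genes wider in yolk sac instead of 2, and 1 liver-only granule gene instead of 6. Placing peaks by midpoint gave -1 genes called and 0 yolk-sac-only genes, and the window of 1000 bp gave 0 liver-only genes. Cebpe's call difference (share of libraries, yolk sac minus liver) was -0.5 with 250 bp, against 0.5. Distal differences were 15 and 34.5 peaks with flanks of 10 and 50 kb, and 19 with the RefSeq body of Cx3cr1, an alternative chosen after seeing the data, as were all those of the gene lists. Leaving out each library gave 1 to 2 liver-only genes, 1 to 2 yolk-sac-only genes and 2 to 4 genes wider in yolk sac. The other 52 of 72 recalculations of the 7 main results stayed within the replicate spread or 1.5 times the count, but among them the difference in genes called was 0 with 250 bp and without yolk sac replicate 1, so it kept no direction there. Also among them, the 6 yolk-sac-only macrophage genes of the higher-scoring 50% shared only C1qa with the 6 of the full lists. The equal-length count of 7 liver-only granule genes could hardly fall, since few or no liver peaks were removed. The cause of the changes was not tested, except that equal-length lists drop yolk sac peaks by construction. Replicate numbers are shared between tissues but the labels give them no meaning; across 11805 genes the replicate differences in promoter width of the tissues had r = -0.02. With the replicate block the distal difference was 23 (exact sign-flip p = 0.5, the smallest possible) and the difference in genes called 0.5. The count of genes wider in yolk sac was 3 instead of 2, and the other 4 counts kept their values.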
